A study of Mus musculus with 36 samples.

Results

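The lung's response to the first day of low oxygen was followed on 4 spotted 2-colour cDNA arrays out of 36 in the study, namely those titled as day 1 of hypoxia, replicates 1 to 4. Each array compared RNA pooled from the whole lungs of 5 BALB/c mice kept for 1 day at 0.5 atm with RNA pooled from 5 time-matched control mice, so that every value is a log2 ratio of hypoxic over control lung on 1 slide. The other 32 arrays, 4 a day, cover 3, 7, 14 and 21 days at 0.5 atm (16 arrays) and 21 days at 0.5 atm followed by 1, 3, 7 or 14 days at sea level (16 arrays, called days 22, 24, 28 and 35), each against its own time-matched controls. No genotype other than BALB/c is named, and the labels do not say whether the 4 arrays of a day used different pools of mice, so p-values reflect differences among arrays that could be technical. Values above 0 are read here as more RNA in hypoxic lung. This reading is likely but not settled, since only the sequence of samples and dyes in the protocol gives it and no dye swap is recorded.

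Low alveolar oxygen constricts the small arteries of the lung, and when it lasts, the vessel walls thicken and lay down matrix. Within cells, hypoxia-inducible factors (HIF) accumulate and switch on genes of glycolysis, iron handling and blood vessel growth, while in the animal a fall in oxygen is also a stressor that raises glucocorticoid hormones, releases red cell precursors and changes feeding and activity. The lung holds endothelium, smooth muscle, fibroblasts, airway and alveolar epithelium, and blood cells, and an array of whole lung sums over all of them. In such bulk RNA, fewer cells of a type and less RNA per cell cannot be told apart. Because the deposited values are ratios, the lung identity of the samples could not be checked by the level of lung markers.

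The 4 arrays gave values for 14643 to 15042 of 15388 spots, and the small number of arrays limits the precision. Spots of 1 gene were averaged. Across features (genes, or single spots without exactly 1 gene symbol), which are not independent replicates, replicates 1 and 2 correlated at r = 0.713 and replicates 3 and 4 at r = 0.719, whereas arrays from different pairs correlated at 0.298 to 0.57. The split was not confined to day 1: on every other day too, arrays of the same pair had the higher median correlation. What sets the 2 pairs apart is not given in the sources used here. Each call below was therefore also computed with arrays of a day and pair treated as a random block; where a named gene's call is lost, the adjusted p of that fit is given as its blocked adjusted p, from limma.

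Against a log2 ratio of 0, 2428 of 12354 features tested (19.7 percent) passed a limma adjusted p of 0.05, of which 1311 (10.6 percent) were higher and 1117 (9.04 percent) lower in hypoxic lung. With day and pair as a random block 870 passed (7.04 percent), 392 higher (3.17 percent) and 478 lower (3.87 percent). Most changes were small: the median absolute log2 ratio of the 2428 was 0.312, 358 reached 0.5, and 58 reached 1. Without replicate 3 the count was 1511, and without replicate 4 it was 1371. The median over all features was 0.02, and the 1395 called features with a usable gene symbol are the ones described below.

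Cdk19, a kinase of the Mediator complex that links transcription factors to RNA polymerase, was the named gene with the largest rise. Its log2 ratios on replicates 1 to 4 were 1.54, 1.52, 1.58 and 1.67, a mean of 1.58 ± 0.07 (SD, n = 4), or 2.98-fold (SE 0.077, limma adjusted p = 1.3e-15). All 4 arrays lay within a narrow band, and both pairs gave nearly the same value. The gene rested on 1 spot, and its means on days 3 to 21 lay between 1.50 and 1.95 before falling to 0.04 on day 22, so its rise was already at its later size within 1 day.

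Genes of the red cell formed the next group. Hbb-b1, an adult beta globin gene, read 1.28, 1.23, 1.30 and 1.21 (mean 1.25 ± 0.04, 2.39-fold, limma adjusted p = 2.4e-12), which was the tightest set of values among the leading genes. Hba-x (1.13 ± 0.18) and Hbb-y (0.98 ± 0.10), annotated as embryonic globin genes, and Alas2, the first enzyme of haem synthesis in red cells (0.65 ± 0.24, adjusted p = 0.0026), also rose. Globin cDNAs are alike in sequence, and these spots cannot separate adult from embryonic transcripts. Of 9 red cell markers tested, 4 were higher and 1 was lower (55.6 percent called beside 19.7 percent of all features), and 4 and none with the random block. The lower one was Tfrc, the transferrin receptor of immature red cells and dividing cells. Tfrc stood at -0.36 ± 0.08 (blocked adjusted p = 0.066), with its 3 spots between -0.85 and 0.15. Gata1, the master transcription factor of the lineage, was at 0.27 ± 0.24 and did not pass (adjusted p = 0.14).

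Among the 15 largest rises, Phtf1 (1.20 ± 0.08) and Got2, a mitochondrial aminotransferase (1.05 ± 0.18), each rest on 1 spot. Over all 36 arrays, which share pools and slides with the globin spots, Phtf1 correlated with Hbb-b1 at r = 0.983 and Got2 at r = 0.978, above Alas2 at 0.836 over 35 arrays. Cdk19 correlated with Hbb-b1 at r = 0.351. Whether the Phtf1 and Got2 spots report their own genes was not tested.

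Agr2, a disulphide isomerase that folds mucins in secretory epithelium, read 1.10, 0.81, 1.44 and 1.42 (mean 1.19 ± 0.30, 2.28-fold, adjusted p = 8.6e-11), with its 3 spots between 0.69 and 1.57. Both arrays of the second pair lay above both of the first, yet the test of the pairs' difference did not pass (-0.47, adjusted p = 0.055). Lgals1, the lectin galectin 1, read 1.15, 0.99, 1.26 and 1.29 (1.17 ± 0.14, 2.25-fold), and S100a6, a calcium-binding protein of growing cells, 0.75, 0.99, 0.87 and 0.93 (0.88 ± 0.10, 1.85-fold). Rbm3, an RNA-binding protein known for its rise when cells cool, read 1.09, 1.15, 0.83 and 1.14 (1.05 ± 0.15, 2.07-fold, adjusted p = 7.1e-14). For Lgals1, S100a6 and Rbm3 the 4 arrays were all well above 0 and the pairs overlapped or lay close together.

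Tnc, tenascin C, a matrix protein of remodelling tissue, read 0.87, 0.90, 1.30 and 1.11 (1.05 ± 0.20, 2.06-fold), Spon2 1.15, 0.82, 1.30 and 0.56 (0.96 ± 0.33), and Adamts1, a secreted metalloproteinase, 0.72, 0.81, 1.02 and 1.16 (0.93 ± 0.20). Lama1, a laminin chain of basement membranes, was less even, at 0.81, 0.25, 1.26 and 1.22 (0.88 ± 0.47, adjusted p = 0.001). Its mean in replicates 1 and 2 did not pass (0.53, adjusted p = 0.054), and it was the only one of the 15 that did not pass in both pairs. All 15 passed with the random block.

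Tgfbr3, the gene with the largest fall among named genes, encodes betaglycan, a co-receptor that presents transforming growth factor beta (TGF-beta) to its receptors. It read -1.45, -1.04, -1.43 and -1.69 (mean -1.40 ± 0.27, SD, n = 4, which is 2.64-fold lower, adjusted p = 1.3e-06). Igfbp3, a carrier of insulin-like growth factors, read -1.48, -0.89, -1.40 and -1.52 (-1.32 ± 0.29, 2.50-fold lower, adjusted p = 3.9e-13). In both genes replicate 2 was the nearest to 0, and every array was far below it. Prelp (-1.16 ± 0.18) and Dcn, decorin (-0.96 ± 0.22), are small leucine-rich proteoglycans that bind collagen, and both were lower on all 4 arrays.

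Cd93, a lectin of endothelial and myeloid cells, read -0.84, -1.10, -1.32 and -1.03 (-1.07 ± 0.20, 2.10-fold lower, adjusted p = 0.00063). F2r, the thrombin receptor PAR1, read -1.10, -0.78, -1.47 and -0.81 (-1.04 ± 0.32, 2.05-fold lower). Mylpf, a myosin light chain of fast skeletal muscle, read -1.34, -0.75, -1.23 and -1.26 (-1.14 ± 0.27, 2.21-fold lower). It was the only one of 3 cardiac and skeletal muscle markers that passed, with Nppb at -0.17 and Tnnt1 at 0.08.

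Irgq (-1.06 ± 0.27), Pdlim7 (-1.01 ± 0.33), Aldh1b1 (-0.88 ± 0.22) and Zfp445 (-0.87 ± 0.22) were also among the 15 largest falls. For 3 of the 15 the call did not hold with the random block: Ampd3, an AMP deaminase (-0.97 ± 0.82, blocked adjusted p = 0.12), Bche, butyrylcholinesterase (-0.93 ± 0.72, blocked adjusted p = 0.077), and the nuclear non-coding RNA Neat1 (-0.90 ± 0.14, blocked adjusted p = 0.11). Ampd3 read -0.97, -2.13, -0.51 and -0.27, so that replicate 2 alone carried much of its mean. Its call was lost when any single array was left out, with adjusted p between 0.051 and 0.36. In 12 of the 15 the mean passed within each pair; Ampd3 and Bche did not pass in replicates 3 and 4, and Neat1 did not pass in replicates 1 and 2.

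**Figure D1:**
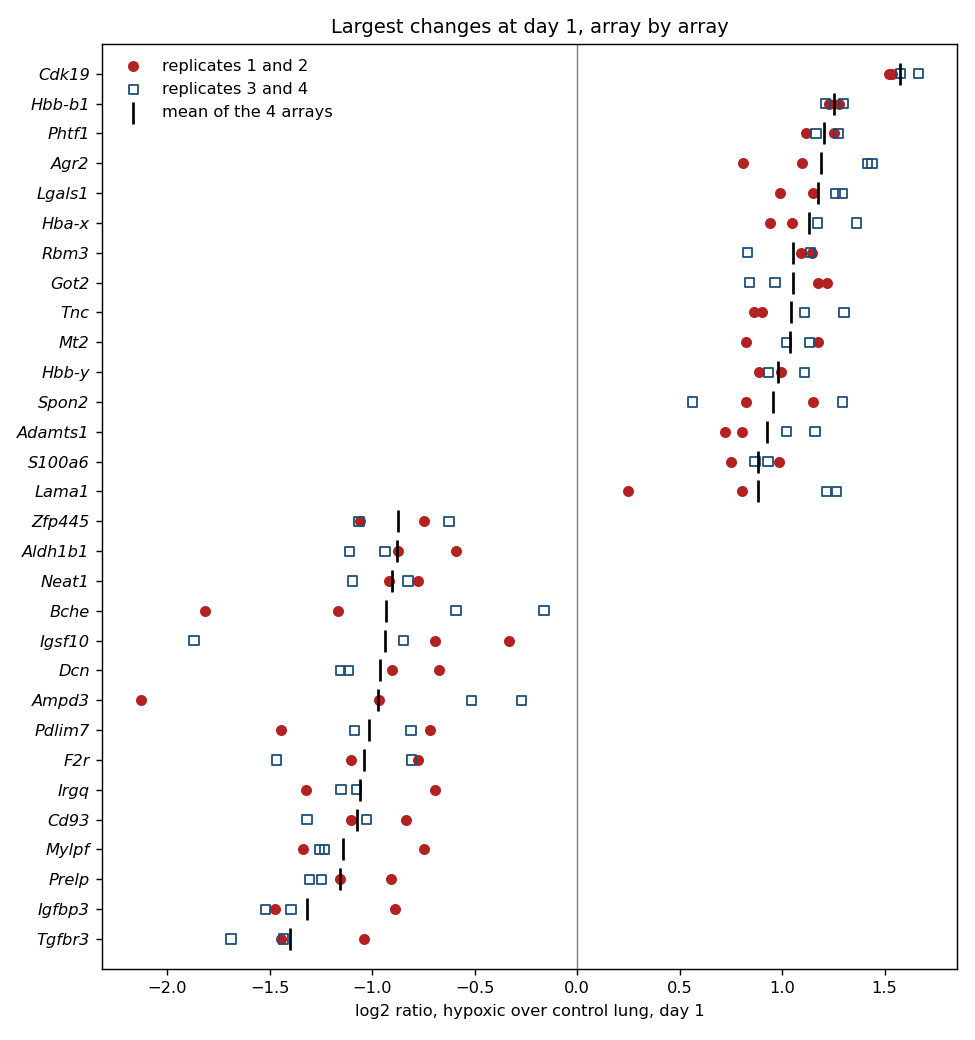
Log2 ratios (horizontal axis, hypoxic over control lung) of the 15 largest rises and 15 largest falls at day 1, with red points for replicates 1 and 2, open blue squares for replicates 3 and 4, and a black bar for the mean of 4 arrays. Cdk19 and Hbb-b1 hold within a narrow band around 1.58 and 1.25, whereas Lama1, Igsf10, Ampd3 and Bche spread widely.

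Of 12 genes that respond to glucocorticoids in many tissues, 8 were higher, 2 were lower and 2 did not pass. This is a share of 83.3 percent called beside 19.7 percent of all features, with a median log2 ratio of 0.32 beside 0.02. This list was chosen with earlier results of these data known, so its share is only a description. The 19.7 percent also stands beside the day 1 shares of the lists below. Mt1, Mt2 and Lcn2 are among the 8 and are counted again in other lists below. Sgk1, a kinase that controls sodium transport, read 0.76, 0.84, 0.80 and 0.90 (0.83 ± 0.06, 1.77-fold, adjusted p = 1.6e-12), with little spread among the 4 arrays. Errfi1, an inhibitor of the EGF receptor, was at 0.31 ± 0.03 (adjusted p = 9.3e-05), and Fkbp5, a co-chaperone of the glucocorticoid receptor, at 0.30 ± 0.18 (adjusted p = 0.034, blocked adjusted p = 0.12). Tgm2 (0.39 ± 0.27, blocked adjusted p = 0.093) and Glul (0.32 ± 0.22, blocked adjusted p = 0.19) also passed the test without the block alone. The 2 that fell were Nr3c1, the glucocorticoid receptor itself, at -0.85, -0.74, -0.45 and -0.32 (-0.59 ± 0.25, adjusted p = 0.00062), and Klf9 (-0.52 ± 0.06). With the random block 5 were higher and 2 lower, and leaving out single arrays gave 5 or 6 higher and 2 lower. The hormone was not measured.

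The metallothioneins, small cysteine-rich proteins that bind zinc and copper and are induced by metals and by glucocorticoids, were both higher. Mt2 read 1.17, 0.82, 1.02 and 1.13 (1.04 ± 0.16, 2.05-fold, adjusted p = 8.1e-09) and Mt1 0.91, 0.99, 0.62 and 0.76 (0.82 ± 0.16, 1.76-fold, adjusted p = 0.00082). The 2 genes moved together over the study, with r = 0.965 over 36 arrays. They are neighbours on mouse chromosome 8, and the 250 bases before each start site are shown because they hold the metal response element, whose core was searched as TGCACNC or TGCGCNC on both strands. The windows are from RefSeq, build GRCm38.p6, plus strand, chr8:94178839-94179088 for Mt1 and chr8:94172368-94172617 for Mt2, and capitals mark the cores. The Mt1 window holds 1 core and the Mt2 window 3, and such a core is found in 21.4 percent of 32851 windows of this length, so a match alone is a description.
Mt1: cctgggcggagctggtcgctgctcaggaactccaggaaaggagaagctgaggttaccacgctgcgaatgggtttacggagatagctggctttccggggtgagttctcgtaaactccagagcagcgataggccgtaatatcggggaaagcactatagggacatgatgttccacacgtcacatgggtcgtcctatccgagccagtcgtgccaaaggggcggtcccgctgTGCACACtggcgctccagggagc
Mt2: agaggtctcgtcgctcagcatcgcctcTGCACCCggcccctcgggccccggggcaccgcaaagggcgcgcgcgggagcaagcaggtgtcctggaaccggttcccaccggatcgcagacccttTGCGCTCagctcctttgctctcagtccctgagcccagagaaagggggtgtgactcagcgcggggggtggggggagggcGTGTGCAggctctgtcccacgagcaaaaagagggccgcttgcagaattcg

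Of 11 immediate early genes tested, 3 were higher and 2 lower (45.5 percent called, median 0.11). Klf4, a transcription factor induced by shear stress in endothelium, read 0.57, 0.47, 0.67 and 0.63 (0.59 ± 0.09, 1.50-fold, adjusted p = 1.4e-07), and Gadd45g, a stress sensor that restrains growth, 1.17, 0.84, 0.75 and 0.36 (0.78 ± 0.34). Fos was at 0.31 ± 0.11 (blocked adjusted p = 0.073), whereas Ier3 (-0.49 ± 0.08) and Rgs2 (-0.25 ± 0.05) were lower. Egr1 (0.02) and Myc (0.18) did not pass. Of 11 inflammatory mediators, 4 were higher and none was lower (36.4 percent called, median 0.20): the chemokine Cxcl12 (0.87 ± 0.12, 1.83-fold), Socs3, a feedback inhibitor of cytokine signalling (0.65, 0.68, 0.94 and 0.67, mean 0.74 ± 0.14), the iron-binding lipocalin Lcn2 (0.53 ± 0.23) and the transcription factor Stat3 (0.31 ± 0.12). All 4 also passed with the random block. Of 13 interferon-inducible genes 1 was higher and 2 were lower (23.1 percent called beside 19.7 percent of all features), with a median of -0.002, and none and 1 with the random block.

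The circadian clock runs on an activator pair, which includes Arntl (Bmal1) and drives its own repressors through E-box sequences, and on output factors that oscillate with it. Of 12 clock genes tested, 2 were higher and 3 lower (41.7 percent called, median -0.07), and the same counts were found with the random block. Arntl read 0.78, 1.03, 0.78 and 0.75 (0.83 ± 0.13, 1.78-fold, adjusted p = 0.0039), and Cry1, a repressor, was at 0.43 ± 0.15 (adjusted p = 0.00057). The output and repressor genes Tef (-0.87, -0.63, -0.85 and -1.02, mean -0.84 ± 0.16), Nr1d2 (-1.07, -0.75, -0.86 and -0.66, mean -0.84 ± 0.17) and Per3 (-0.53 ± 0.24) were lower. Clock, the partner of Arntl, was at 0.17 ± 0.14 (adjusted p = 0.052). Without replicate 4 the call of Per3 was lost (-0.42, adjusted p = 0.082). The hour at which lungs were taken is not given in the sources used here.

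The E-box CACGTG, which reads the same on both strands, was looked for in the 250 bases before the start sites of these 5 genes. It was found in the window of Cry1 and in both RefSeq windows of Tef, and not in those of Arntl, Nr1d2 or Per3; 6.02 percent of the 32851 windows hold it. Cry1 and the first Tef window are shown, with the E-box in capitals, since they moved in opposite directions while holding the same letters. The build is GRCm38.p6, chr10:85185055-85185304 on the minus strand for Cry1 and chr15:81802423-81802672 on the plus strand for Tef.
Cry1: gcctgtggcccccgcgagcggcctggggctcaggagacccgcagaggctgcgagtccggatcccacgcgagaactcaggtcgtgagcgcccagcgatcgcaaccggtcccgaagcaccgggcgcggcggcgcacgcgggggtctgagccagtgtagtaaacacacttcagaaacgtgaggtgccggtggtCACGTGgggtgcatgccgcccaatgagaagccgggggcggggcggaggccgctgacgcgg
Tef: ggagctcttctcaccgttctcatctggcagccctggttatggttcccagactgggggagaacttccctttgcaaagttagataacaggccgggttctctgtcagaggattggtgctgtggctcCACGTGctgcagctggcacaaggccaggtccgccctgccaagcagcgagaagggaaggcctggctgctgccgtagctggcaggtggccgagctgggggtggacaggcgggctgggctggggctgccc

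Of 29 genes of fatty acid and lipid metabolism tested, 5 were higher and 1 was lower (20.7 percent called, median -0.03), which is close to the 19.7 percent of all features. The 5 were Hmgcs1 (0.44, 0.51, 0.72 and 1.05, mean 0.68 ± 0.28), Sqle (0.65, 0.87, 0.24 and 0.50, mean 0.56 ± 0.27), Lss (0.62, 0.63, 0.41 and 0.57, mean 0.56 ± 0.10), Idi1 (0.36 ± 0.12), and the fatty acid elongase Elovl3 (0.28 ± 0.07, blocked adjusted p = 0.073). The first 4 encode enzymes of the sterol pathway, a grouping made after their values were seen and not tested. Fdft1, squalene synthase, was at 0.18 ± 0.22 and did not pass (adjusted p = 0.17), and neither did the fatty acid synthase Fasn (-0.12 ± 0.15). The gene that fell was Lpl, lipoprotein lipase, which releases fatty acids from blood lipids, at -0.53, -0.49, -0.47 and -0.61 (-0.52 ± 0.06, adjusted p = 3.5e-05).

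The sterol regulatory element, bound by the SREBP factors that switch on this pathway, was searched by the letters TCACCCCAC on both strands. The Hmgcs1 window holds 1 copy, in capitals here (GRCm38.p6, chr13:119690101-119690350, plus strand), and those of Lss and Idi1 hold none. No window was available for Sqle, so it was not searched. Such letters are found in 0.496 percent of the 32851 windows.
Hmgcs1: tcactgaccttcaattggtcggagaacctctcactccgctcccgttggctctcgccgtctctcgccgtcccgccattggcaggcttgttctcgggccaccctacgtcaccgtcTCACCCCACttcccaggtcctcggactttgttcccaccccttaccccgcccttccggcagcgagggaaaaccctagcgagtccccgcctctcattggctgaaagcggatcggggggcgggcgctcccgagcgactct

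Of 30 enzymes and regulators that deal with peroxides and foreign compounds, 1 was higher, 9 were lower and 20 did not pass (33.3 percent called, median -0.08). With the random block 1 was higher and 7 lower. Txnip, an inhibitor of thioredoxin that follows cellular glucose, read -0.71, -0.62, -0.96 and -1.04 (-0.83 ± 0.20, 1.78-fold lower, adjusted p = 3.7e-06). Cat, catalase, was at -0.58 ± 0.23, the glutathione transferases Gstm1 at -0.53 ± 0.06, Gstm5 at -0.46 ± 0.11 and Gstm2 at -0.34 ± 0.11, and the epoxide hydrolase Ephx1 at -0.50 ± 0.15. Paralogous transferases are alike in sequence, so their spots are not independent. Txnrd1, thioredoxin reductase, was the one that rose (0.33 ± 0.16, adjusted p = 0.0014). Superoxide dismutase Sod1 (-0.10) and haem oxygenase Hmox1 (0.18) did not pass.

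The list of HIF target genes, which also holds Hif1a itself and Vhl, had 19 members tested. Of these, 3 were higher and 2 lower (26.3 percent called beside 19.7 percent of all features, median 0.06 beside 0.02). With the random block 1 was higher and 1 lower. P4ha2, a collagen prolyl hydroxylase, read 0.38, 0.50, 0.30 and 0.25 (0.36 ± 0.11, adjusted p = 0.00074), Hk1 was at 0.36 ± 0.15 (blocked adjusted p = 0.14) and Vhl at 0.20 ± 0.12 (blocked adjusted p = 0.11). Bnip3l, a mitochondrial protein that triggers removal of mitochondria, was lower, at -0.57, -0.48, -0.38 and -0.29 (-0.43 ± 0.12, adjusted p = 4.5e-06). The other lower member was Tfrc, already counted among red cell markers (-0.36 ± 0.08, blocked adjusted p = 0.066), whose spots had both signs. Adm (-0.01), Slc2a1 (-0.07), Pdk1 (-0.11), Egln1 (0.02) and Hif1a (0.06) did not pass. Of 12 glycolysis genes, 2 were higher and none was lower (16.7 percent called, below the 19.7 percent of all features). With the random block 1 was higher and none lower. The 2 were Hk1, already counted in the HIF list, and Pkm, pyruvate kinase. Pkm read 0.62, 0.68, 0.76 and 0.45 (0.63 ± 0.13, 1.54-fold, limma adjusted p = 0.00026). Ldha (0.30 ± 0.24, adjusted p = 0.11) and Pgk1 (0.07) did not pass. Of 54 genes of oxidative phosphorylation, 3 were higher and 3 lower (11.1 percent called), and 1 and 2 with the random block, with Cox7a2l at -0.35 ± 0.04 and Ndufs1 at -0.35 ± 0.09 the largest falls.

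Matrix genes moved in both directions. Of 29 tested, 9 were higher and 5 lower (48.3 percent called, median -0.03), and 4 and 3 with the random block. Besides Tnc and Spon2, the calcification inhibitor Mgp (0.68 ± 0.11, adjusted p = 3.4e-08) and the basement membrane collagen chains Col4a2 (0.70 ± 0.25) and Col4a1 (0.42 ± 0.24, blocked adjusted p = 0.059) were higher. Dcn, Sparcl1 (-0.47 ± 0.06), Lamc1 (-0.37 ± 0.08), Ltbp1 (-0.71 ± 0.39, blocked adjusted p = 0.11) and Nid1 (-0.18 ± 0.09, blocked adjusted p = 0.19) were lower. The fibrillar collagen chains Col1a1 (-0.05 ± 0.26) and Col1a2 (0.02 ± 0.23) and fibronectin Fn1 (-0.004 ± 0.149) did not pass. Among 12 markers of fibroblasts and pericytes, 2 were higher and 3 lower (41.7 percent called beside 19.7 percent of all features), and 1 and 1 with the random block. Dcn was among the 3 lower ones. The higher ones were Vim, vimentin, at 0.80, 0.71, 0.74 and 0.76 (0.75 ± 0.04), and Col3a1 (0.15 ± 0.07, blocked adjusted p = 0.21). Col3a1 no longer passed when arrays were median-centred (0.14, adjusted p = 0.082).

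TGF-beta and BMP signals act through paired receptors, SMAD proteins and their inhibitors, and loss of the BMP receptor Bmpr2 underlies heritable pulmonary arterial hypertension. Of 21 genes of these pathways, 2 were higher and 6 lower (38.1 percent called, median -0.01), and 1 and 4 with the random block. Among ligands, Tgfb2 rose, at 0.57, 0.51, 0.86 and 0.65 (0.65 ± 0.15, 1.57-fold, adjusted p = 2.1e-07), while Bmp4 (-0.10) and Bmp2 (-0.01) did not pass. Among receptors, Bmpr2 read -0.99, -0.70, -0.55 and -0.50 (-0.68 ± 0.22, 1.60-fold lower, adjusted p = 0.00065), Bmpr1a was at -0.28 ± 0.11 and Tgfbr3 at -1.40; Tgfbr1 (0.15) and Tgfbr2 (0.03) did not pass. Of the proteins that restrain or report the signal, Smurf2, a ubiquitin ligase for SMADs and receptors, was at -0.62 ± 0.10 (adjusted p = 1.2e-09), Id2 at -0.35 ± 0.11 (blocked adjusted p = 0.12) and Pmepa1 at 0.55 ± 0.29 (blocked adjusted p = 0.072). Smad1, Smad3, Smad4 and Smad5 did not pass.

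Of 13 genes of vessel tone, 1 was higher, 5 were lower and 7 did not pass (46.2 percent called, median -0.21), and none and 3 with the random block. Ednrb, the endothelin B receptor that clears endothelin and releases nitric oxide, read -0.72, -0.64, -0.81 and -0.67 (-0.71 ± 0.07, 1.64-fold lower, adjusted p = 1.2e-08), and Ece1, which makes endothelin, -0.35, -0.30, -0.34 and -0.49 (-0.37 ± 0.08). Gucy1a1, a subunit of the nitric oxide receptor, read -0.49, -0.29, -0.82 and -0.41 (-0.50 ± 0.23, adjusted p = 2.5e-05). All 4 arrays were below 0 for these 3 genes. Npr3 (-0.34 ± 0.24, blocked adjusted p = 0.060) and Bche made up the 5, and Rhoa (0.14 ± 0.06, blocked adjusted p = 0.21) was the one called higher. Of 11 smooth muscle contractile genes, 6 were higher and none was lower (54.5 percent called, median 0.26): Flna, filamin A (0.70 ± 0.10), Myl6 (0.52 ± 0.26, blocked adjusted p = 0.074), Cald1 (0.43 ± 0.14), Actn1 (0.40 ± 0.24), Myl9 (0.36 ± 0.10) and Cnn2 (0.26 ± 0.11, blocked adjusted p = 0.13). The more restricted smooth muscle genes Cnn1 (0.14) and Mylk (-0.01) did not pass.

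Markers of other lung cells gave no single direction. Beside 19.7 percent of all features, 85.7 percent of 7 endothelial markers and 37.5 percent of 8 alveolar type II markers were called. With the random block 3 endothelial markers were higher and 2 lower, and 2 type II markers were lower and none higher. Of 7 endothelial markers, 4 were higher and 2 lower: Emcn, a sialomucin of capillaries and veins, read 0.91, 0.88, 0.32 and 0.33 (0.61 ± 0.33), Gja4 was at 0.52 ± 0.24, Podxl at 0.44 ± 0.19 and Cdh5 at 0.22 ± 0.12 (blocked adjusted p = 0.089), while Ednrb and Cd93 fell. Emcn was higher in the first pair than in the second on both arrays. Of 8 markers of alveolar type II cells, which make surfactant, none was higher and 3 were lower: Slc34a2, a phosphate transporter, read -0.84, -0.77, -0.74 and -0.77 (-0.78 ± 0.04, adjusted p = 2.2e-06), with its 3 spots between -1.76 and -0.07, Etv5 was at -0.82 ± 0.23 and Lyz2 at -0.56 ± 0.18 (blocked adjusted p = 0.053). Surfactant protein D, Sftpd (-0.07), and Abca3 (-0.16) did not pass.

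Of 9 airway markers, 1 was higher and 3 lower (44.4 percent called beside 19.7 percent of all features), and none and 2 with the random block. Tppp3, a gene of ciliated cells, read -0.68, -0.58, -0.50 and -1.03 (-0.70 ± 0.23, limma adjusted p = 2.3e-05). Of 2 type I cell markers, Krt7 was called (0.41 ± 0.26, blocked adjusted p = 0.10) and Cav1 (0.02) was not. Of 4 neutrophil markers 3 were higher: Ltf, lactoferrin (0.61, 0.52, 0.85 and 0.57, mean 0.64 ± 0.15), Lcn2, and S100a9 (0.32 ± 0.15, blocked adjusted p = 0.10); Csf3r was at 0.16 ± 0.09 (adjusted p = 0.18). Of 7 macrophage markers 2 were lower, Lyz2 and Cybb (-0.37 ± 0.17), and none was higher (28.6 percent called beside 19.7 percent of all features). With the random block 1 of the 7 was lower. The class II gene H2-Eb1 was at -0.50 ± 0.10 (n = 3, since replicate 3 has no value), H2-DMa at -0.06, and the lymphocyte genes Ighm (-0.03) and Blnk (0.15) did not pass. Of 3 adipose markers, Elovl3 was called higher and Lpl lower (66.7 percent).

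Protein folding genes were divided. Of 20 genes of the endoplasmic reticulum, 3 were higher and 6 lower (45.0 percent called, median -0.07), and 1 and 3 with the random block: the chaperones Hsp90b1 (-0.62 ± 0.06, adjusted p = 3.3e-05) and Canx, calnexin (-0.41 ± 0.13), were lower, as was Dnajb9 (-0.31 ± 0.26), while the ubiquitin ligase Syvn1 (0.40 ± 0.10) was higher. The spots of Canx ranged from -1.13 to 0.05. Hspa5 (-0.08), the main chaperone of that compartment, and Atf4 (0.24) did not pass. Of 24 cytosolic and mitochondrial chaperones, 3 were higher and 2 lower (20.8 percent called beside 19.7 percent of all features, median -0.02), and 2 and 1 with the random block, with Dnaja1 at 0.41 ± 0.08 and Hspa4l at -0.65 ± 0.14.

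Of 8 genes of apoptosis and the p53 response, none was higher and 5 were lower (62.5 percent called, median -0.29), and none and 3 with the random block. The death receptor Fas read -0.41, -0.67, -0.63 and -0.49 (-0.55 ± 0.12, adjusted p = 2.3e-06), and Bnip3l, Ccng1 (-0.26 ± 0.08), Mdm2 (-0.31 ± 0.12, blocked adjusted p = 0.11) and Casp9 (-0.33 ± 0.25, blocked adjusted p = 0.20) made up the others. Among genes of basic cell machinery, beside 19.7 percent of all features, the calls were 3 of 46 in the cell cycle (6.52 percent; Cks1b 0.47 higher, Ccnd1 0.28 higher with blocked adjusted p = 0.099, and Rrm1 -0.21 lower with blocked adjusted p = 0.18), 6 of 68 ribosomal proteins (8.82 percent) and 2 of 30 proteasome subunits (6.67 percent). With the random block 1 cell cycle gene was higher and none lower, 1 ribosomal protein was higher and 1 lower, and no proteasome subunit passed. These shares describe the lists and were not tested against other genes.

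**Figure D2:**
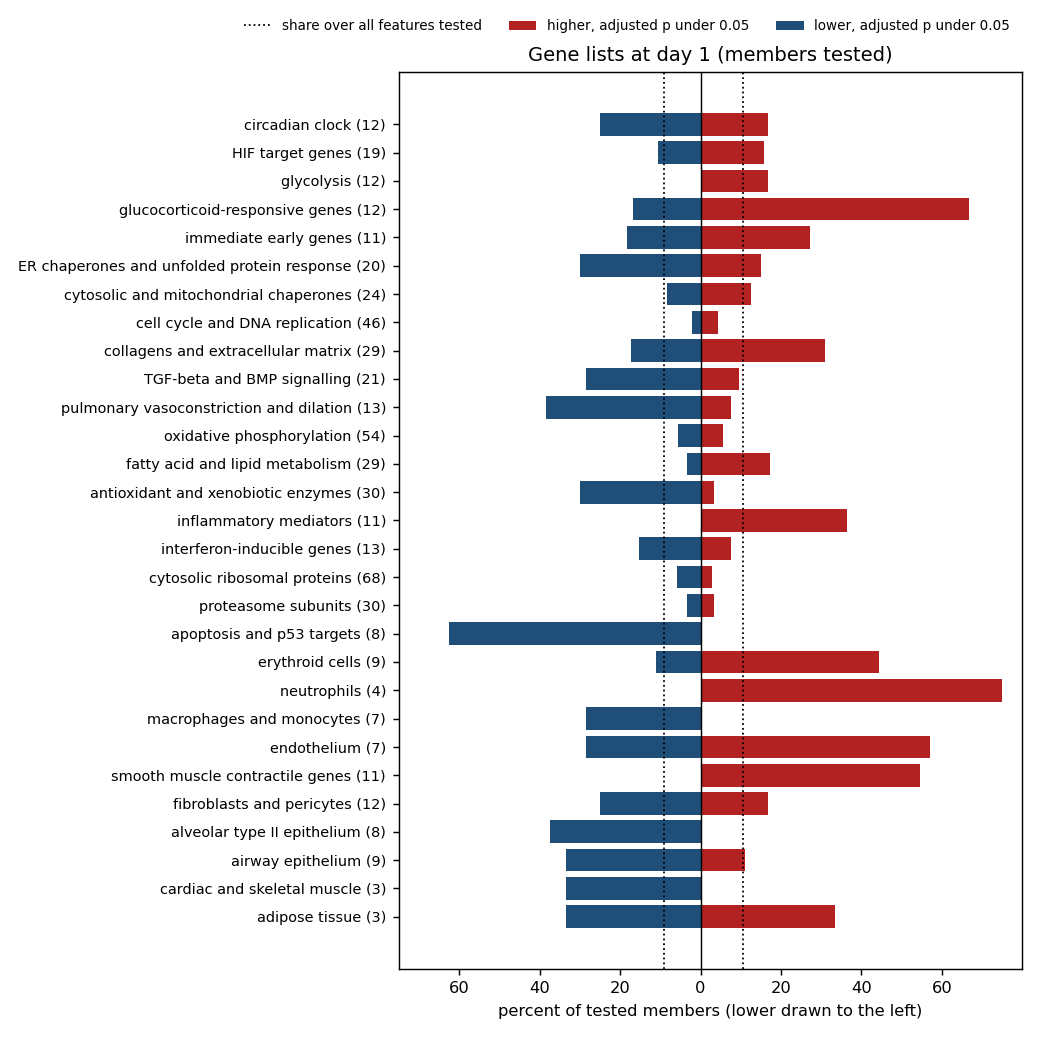
Share of tested members of each gene list that passed at day 1 (horizontal axis, percent; higher to the right in red, lower to the left in blue), with the number tested in parentheses and dotted lines at the shares over all features, 10.6 percent higher and 9.04 percent lower. The glucocorticoid-responsive list has 8 of 12 members higher, and the apoptosis list has 5 of 8 lower. All lists were chosen with earlier results of these data known, and those with under 3 tested members are not drawn.

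The difference between day 1 and the later days of hypoxia was tested directly, as day 1 minus the mean of days 3, 7, 14 and 21. Of 12154 features, 342 passed (2.81 percent), 181 higher (1.49 percent) and 161 lower (1.32 percent) at day 1, and 77 passed with the random block. List counts against the later days, given below, stand beside these 1.49 and 1.32 percent. Without replicates 1, 2 and 4 in turn the counts were 170, 216 and 158. Of the 342, 84 were raised at day 1 and above the later days, 85 were lowered and below them, and 154 did not pass at day 1 itself. For 73 features (0.601 percent), whether or not they passed, the day 1 arrays lay wholly outside the range of the 16 later ones.

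Genes above their later level included several of the leading rises. Agr2 fell from 1.19 ± 0.30 at day 1 to 0.49 at day 3 and 0.02 at day 7, a difference of 1.09 from the later mean (adjusted p = 3.6e-08); the lowest day 1 array, 0.81, lay above the highest later one, 0.66. Rbm3 went from 1.05 to 0.23 at day 3 and -0.16 at day 7 (difference 0.99, adjusted p = 1.4e-11), and S100a6 from 0.88 to 0.32 and 0.34 (difference 0.79). Lgals1 declined more slowly, through 0.91 and 0.75 to 0.21 at day 14 (difference 0.63, adjusted p = 2.6e-05). Klf4 was below 0 on every later hypoxia day, between -0.19 and -0.15 (difference 0.76, adjusted p = 4.0e-08), and Socs3 fell to between -0.22 and 0.40 (difference 0.59). Of the 11 immediate early genes, 4 were above their later level, beside 1.49 percent of all features, and none was below. With the random block 1 was above. Of the 4, Klf4 alone was higher at day 1 itself. Jun (0.11) and Klf6 (0.02) did not pass at day 1, and Rgs2 was lower (-0.25).

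For the glucocorticoid-responsive genes, 5 of 12 were above their later level, beside 1.49 percent of all features, and none was below. Sgk1 (difference 0.54, adjusted p = 4.7e-07) and Errfi1 (0.50, adjusted p = 1.3e-06) were 2 of them. The others, Mt2, Mt1 and Fkbp5, rest in part on day 14, when Mt2 stood at -2.16 ± 0.35, Mt1 at -1.91 ± 0.55 and Fkbp5 at -1.60 ± 0.23. Without day 14 the difference was 0.46 for Mt2 (adjusted p = 0.035), 0.27 for Mt1 (adjusted p = 0.73) and 0.36 for Fkbp5 (adjusted p = 0.12), and 3 of the 12 genes were above. Cry1 was the clock gene above its later level (0.54, adjusted p = 0.00058).

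S100a9, a subunit of the neutrophil protein calprotectin, showed the widest gap among the named genes. Its 4 arrays read 0.16, 0.28, 0.32 and 0.51 at day 1, against means of -2.63 at day 3, -0.19 at day 7, -2.72 at day 14 and -2.32 at day 21 (difference 2.28, adjusted p = 7.1e-15; 2.03 without day 14). All day 1 arrays lay above the 15 later hypoxia arrays with a value. Its rise at day 1 itself was small and passed only without the block, and it did not pass when arrays were scaled to a common spread (adjusted p = 0.36). The other neutrophil genes Ltf and Lcn2 did not differ from their later mean beyond the threshold (-0.06 and 0.24, adjusted p = 0.96 and 0.62).

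Of 29 matrix genes, 9 were below their later level and 1, Timp3, was above (difference 0.47, adjusted p = 3.1e-05), and 4 and 1 with the random block. Over all features the shares without the block were 1.32 percent below and 1.49 percent above. Mfap4, a protein of elastic fibres, read 0.40, 0.42, 0.12 and -0.24 at day 1 and between 0.85 and 2.27 on all 16 later arrays (difference -1.33, adjusted p = 9.6e-07). Col3a1 stood at 0.15 ± 0.07 against later means of 0.62 to 1.12 (difference -0.70, adjusted p = 2.6e-09), Col1a2 at 0.02 against 0.45 to 0.87 (-0.69), and Col1a1 had a difference of -0.86 (adjusted p = 0.001). The other 5 differences were lost with the block: Mmp2 (-0.67, blocked adjusted p = 0.092), Col6a1 (-0.42, blocked adjusted p = 0.32), Sparc (-0.41, blocked adjusted p = 0.31), Sparcl1 (-0.40, blocked adjusted p = 0.091) and Lamc1 (-0.33, blocked adjusted p = 0.33). Of the 12 fibroblast and pericyte markers, 5 were below their later level and none was above (4 with the random block); 4 of the 5 are the matrix genes Mfap4, Col1a1, Col1a2 and Col3a1, and the fifth is Npnt. 1 of the 4 Col3a1 spots had a difference of the other sign (0.03, adjusted p = 0.97). Tnc (0.19, adjusted p = 0.45) and Col4a2 (-0.19, adjusted p = 0.74) did not differ from their later mean beyond the threshold.

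Some cell cycle genes were also below their later level. Of 46, 5 were below their later level and none was above: Top2a (-0.57, adjusted p = 1.5e-05), Ccnb2 (-0.55), Cdkn2c (-0.36), Gmnn (-0.36, blocked adjusted p = 0.45) and Ccna2 (-0.26, blocked adjusted p = 0.33). With the random block 3 of the 46 were below. Over all features 1.32 percent were below without the block. None of the 5 passed at day 1 itself, where Top2a was at -0.11 and Ccnb2 at 0.06. Single genes fell at day 1 and were near 0 or higher afterwards. Mylpf differed by -1.02 from its later mean, Nrep by -0.90 (day 1: -0.64, -0.70, -0.86 and -0.91) and the imprinted non-coding RNA H19 by -0.70. The 8 spots of H19 ranged from -1.21 to -0.10 at day 1, and 1 spot had a difference from the later days of the other sign (0.06, adjusted p = 0.97). Npnt (-0.69, blocked adjusted p = 0.063; -0.37 at day 1, blocked adjusted p = 0.15) and the amino acid transporter Slc38a5 (-0.63; -0.18 at day 1, not past the threshold) were also below.

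**Figure D3:**
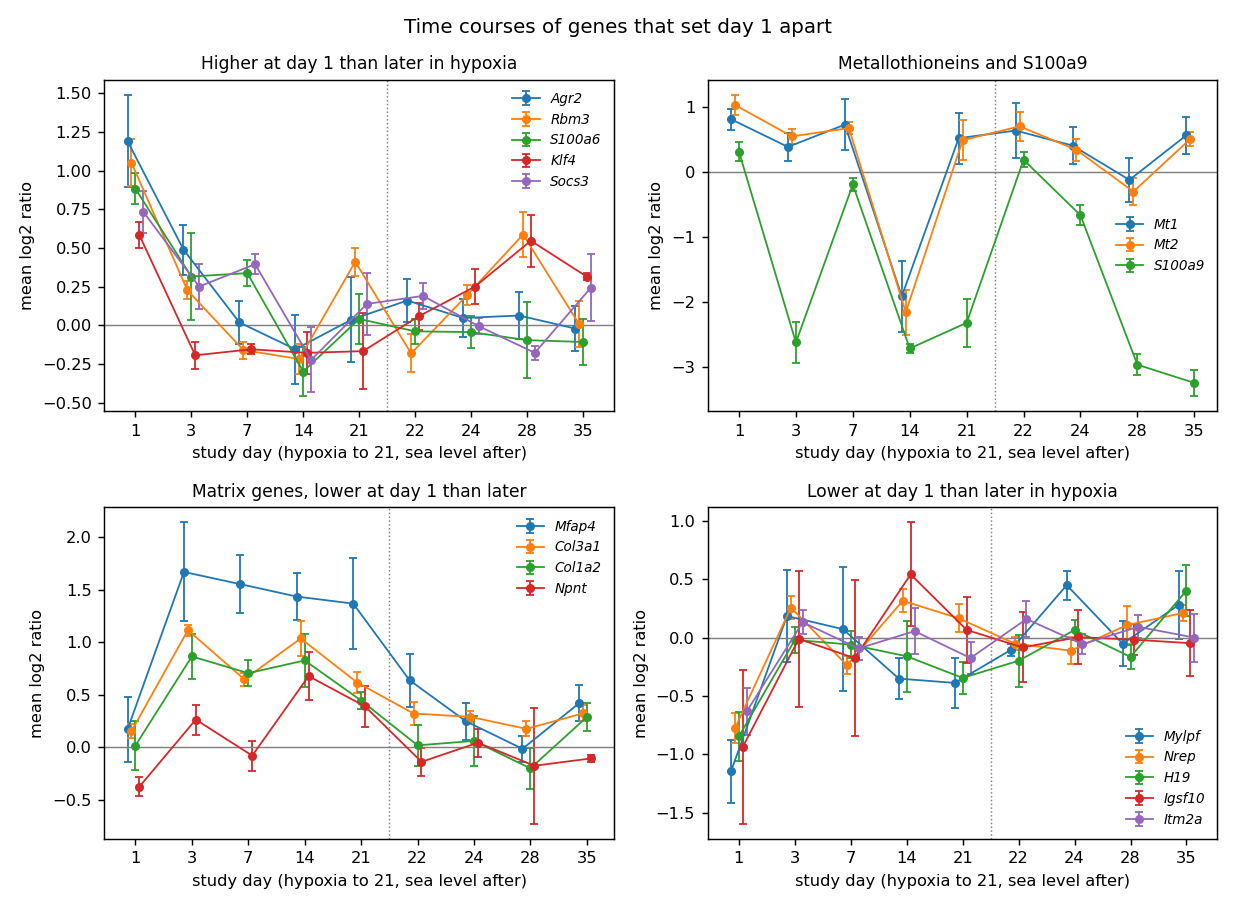
Mean log2 ratio with SD over 4 arrays (vertical axis) on each study day (horizontal axis, not to scale; the dotted line separates hypoxia from sea level) for genes that differed between day 1 and later hypoxia. Agr2, Rbm3 and S100a6 start between 0.88 and 1.19 and fall by day 3, Mfap4 rises from 0.17 to 1.67, Mt1 and Mt2 drop at day 14, and S100a9 is far below 0 on days 3, 14 and 21.

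**Figure D4:**
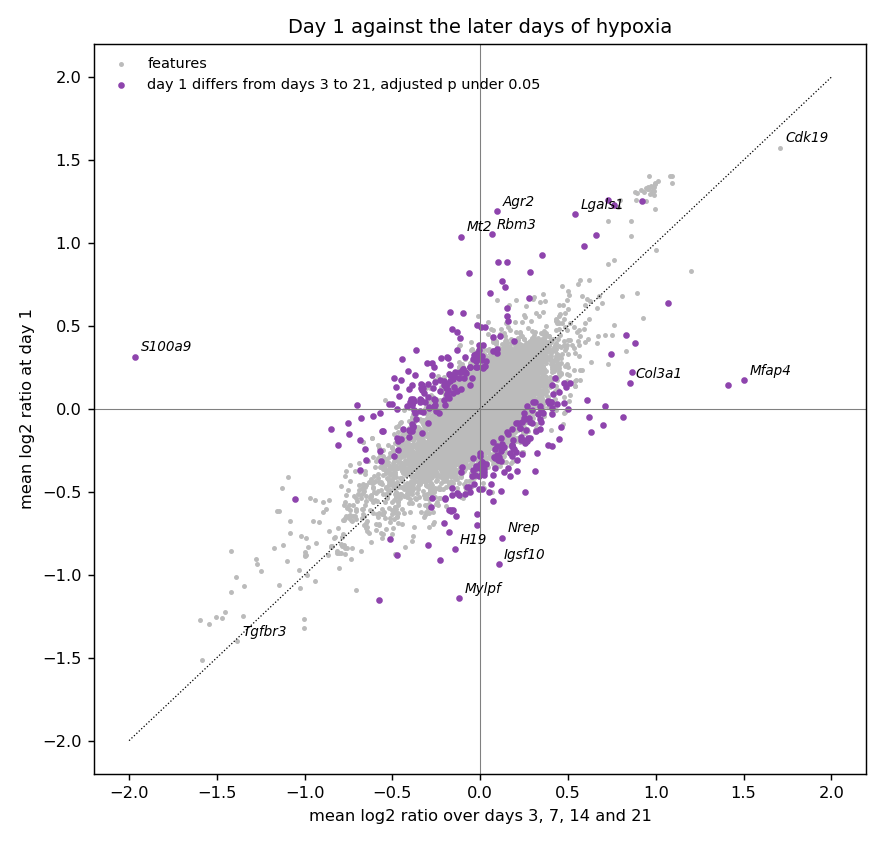
Mean log2 ratio at day 1 (vertical axis) against the mean over days 3, 7, 14 and 21 (horizontal axis) for 12154 features, with the 342 that differed in purple and a dotted line of equality. Among the labelled genes, S100a9 and Mfap4 lie farthest from the line on either side, and Cdk19 and Tgfbr3 lie near it.

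Changes confined to day 1 were counted as features past the threshold at day 1, past it with the same sign in day 1 minus the mean of the other 8 days, and not past it with that sign on any of those 8 days. Of 12104 features 68 met this (0.562 percent), 30 higher (0.248 percent) and 38 lower (0.314 percent), of which 51 have a usable gene symbol. With the random block there were 19, and leaving out replicates 1 to 4 in turn gave 39, 43, 34 and 25. A feature that misses the threshold on another day is not shown to be unchanged there. The difference from the other 8 days, without the condition on single days, passed for 260 (2.15 percent), 153 higher (1.26 percent) and 107 lower (0.884 percent).

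Among those higher, Vmp1, a membrane protein needed for autophagosomes, read 0.30, 0.50, 0.42 and 0.63 (0.46 ± 0.14, 1.38-fold), with means on the other days between -0.40 and 0.16 (difference 0.54, adjusted p = 5.8e-07). Armcx4 read 0.57, 0.60, 0.34 and 0.47 (0.50 ± 0.12; difference 0.51, adjusted p = 5.9e-06) and Baz1a, a chromatin remodelling subunit, 0.38, 0.25, 0.30 and 0.36 (0.32 ± 0.06; difference 0.30, adjusted p = 3.2e-05). These 3 passed in both pairs and with the random block. The calls of Lama1, Pan2 (0.66 ± 0.29; at day 1 itself blocked adjusted p = 0.052), Mthfd2, a mitochondrial folate enzyme (0.35 ± 0.18; at day 1 itself blocked adjusted p = 0.16), and Arf4 (0.32 ± 0.17) on the difference did not hold with the random block, with adjusted p of 0.20, 0.35, 0.34 and 0.27. S100a9 met the definition as well, although its other days were mostly far below 0.

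Among those lower, Itm2a, a membrane protein of differentiating muscle and T cells, read -0.63, -0.35, -0.77 and -0.78 (-0.63 ± 0.20, 1.55-fold lower), and its means on the other 8 days lay between -0.18 and 0.16 (difference -0.65, adjusted p = 3.1e-06). Car4, a carbonic anhydrase on the surface of lung capillaries, read -0.54, -0.25, -0.47 and -0.74 (-0.50 ± 0.20, 1.41-fold lower), with means of -0.23 to 0.13 on the other days (difference -0.50, adjusted p = 0.00098). Both passed in each pair and with the random block. Of the 8 lower genes named in this paragraph, only 2 kept their difference from the other days with that block. Igsf10 (-0.69, -0.33, -0.85 and -1.87, mean -0.94 ± 0.66) rested on replicate 4, without which its difference was -0.66 (adjusted p = 0.22). The differences of Lyz2 (-0.63), Oxct1, an enzyme of ketone body use (-0.50), Dsc2 (-0.46), Teddm3 (-0.47) and Slc48a1, a haem transporter (-0.45), had adjusted p of 0.061 to 0.35 with the random block.

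As deposited, the 2 replicate pairs differed in how many features passed. On 11771 features with all values, 1737 passed in replicates 1 and 2 (14.8 percent; 940 or 7.99 percent higher and 797 or 6.77 percent lower) and 3150 in replicates 3 and 4 (26.8 percent; 1733 or 14.7 percent higher and 1417 or 12.0 percent lower). With arrays scaled to a common spread the counts were close, 3077 in replicates 1 and 2 and 2980 in replicates 3 and 4. On the deposited values, the test of the difference between the pairs passed for 183 (1.55 percent), 67 higher (0.569 percent) and 116 lower (0.985 percent) in replicates 1 and 2. The largest differences among named genes were those of Atp6v0e, a subunit of the proton pump, at -0.59 and -0.81 in the first pair and 0.39 and 1.46 in the second (difference -1.63, adjusted p = 0.030), and Ubap2, at -0.35, -0.36, 0.39 and 1.19 (difference -1.15, adjusted p = 0.028).

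Bche read -1.17, -1.82, -0.59 and -0.16 (difference -1.12, adjusted p = 0.037), Dhps -0.27, -0.55, 0.52 and 0.60 (-0.96) and Uxs1 0.13, 0.40, -0.44 and -0.79 (0.88). In each of these 5 genes the 2 pairs did not overlap, and for all but Bche they had opposite signs. None of the 5 differences passed without replicate 1, 2 or 4, and no feature of the 11771 passed when the spread was taken from the 4 day 1 arrays alone (2773 at an unadjusted p under 0.05) or, with limma over all arrays, without replicate 4 (1076 at an unadjusted p under 0.05). Nr3c1 (-0.80 and -0.38 in the 2 pairs; difference -0.42, adjusted p = 0.048) and Emcn (0.90 and 0.32; difference 0.57, adjusted p = 0.037) had the same sign in both pairs and differed in size.

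**Figure D5:**
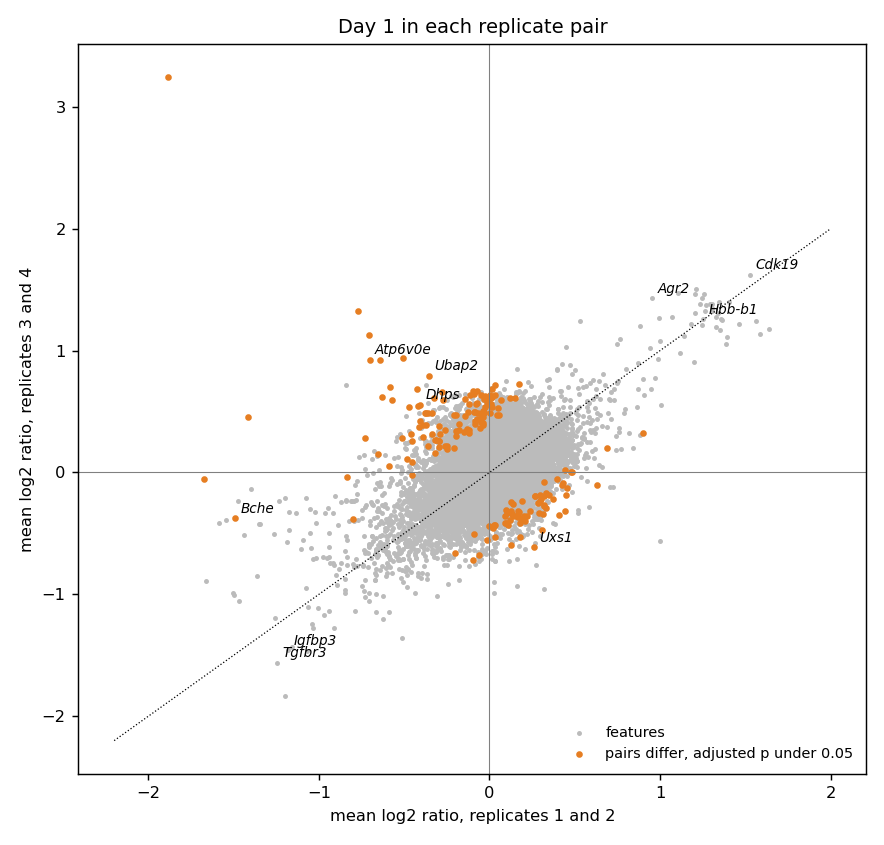
Mean log2 ratio at day 1 in replicates 3 and 4 (vertical axis) against replicates 1 and 2 (horizontal axis) for 11771 features, with the 183 whose pairs differed in orange and a dotted line of equality. Cdk19, Hbb-b1, Tgfbr3 and Igfbp3 lie near the line, and Atp6v0e, Ubap2 and Dhps are below 0 in the first pair and above it in the second.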

How the data were processed

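Per the labels' protocols, the authors hybridised Cy5- and Cy3-labelled cDNA to spotted arrays, scanned them with GenePix, subtracted background, removed flagged spots and applied lowess. The deposited values are log2 ratios, read here as hypoxic over control. The image analysis, the lowess and the filter on flagged spots could not be redone from ratios. Of 15388 spots, 9598 carried 1 gene symbol, 514 several and 5276 none; spots of 1 gene were averaged, giving 12761 features with 6971 genes. A mean per day was fitted over 36 arrays with limma 3.58.1 (R 4.3.3) and tested by eBayes with Benjamini-Hochberg adjustment at 0.05, for features on at least 3 of the 4 day 1 arrays. The fit scripts were tested on simulated data. The simulated arrays were independent, so that test did not cover the correlation within pairs or the fit with the random block. Differences between day 1 and other days, and between replicate pairs, were contrasts of the same kind of fit. Alternatives were array centring and scaling, missing value rules, single spots, robust shrinkage, pairs averaged or as a random block, and arrays left out.

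Genes were named by rule. With values of 1 sign on all 4 arrays, these were the 15 largest changes each way and up to 8 each way confined to day 1. With values of any sign on all 4 arrays, they were up to 8 each way not overlapping later hypoxia and the 5 largest pair differences. Up to 4 members of each list were named whatever their signs. Other list members named in the text were picked after their values were seen. The members and lists were chosen with earlier results of these data known. Promoter sequences are RefSeq's, build GRCm38.p6.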

Additional observations from a re-analysis of the deposited data

Results flagged for a closer look

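In 4 of 137 genes tested for a single array standing apart (Dixon's test which chance passes in about 1 of 20 genes), 1 array did so. These were Socs3 on replicate 3 (0.938), Arntl on replicate 2 (1.025), Syvn1 on replicate 3 (0.543) and Flna on replicate 2 (0.554).

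Day 1 differed from the mean of days 3, 7, 14 and 21 for 342 features and from the mean of the other 8 days for 260. Among named genes whose day 1 arrays did not overlap the later hypoxia arrays, those above were S100a9 (2.279 in log2), Mt2 (1.145), Agr2 (1.093), Rbm3 (0.986), S100a6 (0.785), Klf4 (0.757), Socs3 (0.594) and Vmp1 (0.590). Those below were Mfap4 (-1.334), Mylpf (-1.022), Nrep (-0.901), Col3a1 (-0.699), H19 (-0.699), Col1a2 (-0.693), Npnt (-0.687) and Slc38a5 (-0.629).

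Replicates 1 and 2 differed from replicates 3 and 4 for 183 features. The named genes with the largest such differences were Atp6v0e (-1.629), Ubap2 (-1.146), Bche (-1.115), Dhps (-0.962) and Uxs1 (0.877). What separates the pairs was not tested.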

How the results depend on the processing

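Of 129 named genes past the threshold at day 1, 59 stayed past it under every alternative run; 97 did so with day and pair as a random block (consensus correlation 0.422) and 69 with pairs averaged first. The cause of the shifts below was not tested, except that alternatives with fewer arrays or values have less data. Features past the threshold at day 1 numbered 505 with pairs averaged, 870 with the random block, 970 in replicates 1 and 2 only and 3669 in replicates 3 and 4 only, and 1371 to 2002 with 1 array left out. For day 1 minus later hypoxia the counts were 32, 77 and 118 with pairs averaged, with the random block and in replicates 1 and 2 only, and 158 to 276 with 1 array left out. For day 1 minus the other 8 days they were 30, 75, 43 and 125 to 174, and for changes confined to day 1 they were 9, 19, 12 and 25 to 43. The pair difference gave 505 features with arrays scaled, 0 from the 4 day 1 arrays only by limma (2773 at an unadjusted p under 0.05), and 0 to 132 with 1 array left out. Replicates 1 and 2 gave 3077 with arrays scaled and 443 to 1684 with 1 array left out. Replicates 3 and 4 gave 2980 with arrays scaled and 517 to 3016 with 1 array left out. With arrays median-centred, 47.2 percent of the calls at day 1 were higher, against 54.0 percent as deposited.

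The replicate numbers did not pair the arrays: same-numbered arrays deviated together with r over 0.1 in 127 of 144 comparisons, but arrays of the same pair with another number did as much (median 0.389, against 0.377). Arrays of different pairs and days deviated in opposite ways (median -0.389, over 0.1 in 3 of 288 comparisons). The offset between the pairs thus recurred across days, and its source was not tested. With the number as a replicate block the counts were 3399 at day 1, 711 against later hypoxia, 462 against the other 8 days and 108 confined to day 1. A block of 1 offset between the pairs, chosen after seeing the data, gave 3477, 723, 481 and 111.

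Medians of gene lists moved to 0.020 for the clock and 0.075 for immediate early genes without replicate 4, to -0.125 for the endoplasmic reticulum without replicate 2, and to 0.027 for the cell cycle without replicate 3. In replicates 1 and 2 only they were 0.060 (immediate early), 0.027 (cell cycle), -0.137 (vessel tone), 0.066 (lipid) and -0.167 (apoptosis), and in replicates 3 and 4 only 0.116 (inflammatory). With each spot on its own they were -0.183 (endoplasmic reticulum) and -0.096 (vessel tone). Left out singly, arrays gave ranges of -0.097 to 0.020 (clock), 0.075 to 0.108 (immediate early), -0.125 to -0.04 (endoplasmic reticulum) and 0.027 to 0.074 (cell cycle). The sign turned for Atp6v0e in replicates 1 and 2 only (-0.702), and for single spots of Tfrc (0.154), Canx (0.048), Col3a1 (0.034) and H19 (0.059), the last 2 in day 1 minus later hypoxia.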
